A study of Mus musculus with 9 samples.

Results

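Liver levels of a family of 6 miRNAs that share one seed were followed: mmu-miR-15a-5p, mmu-miR-15b-5p, mmu-miR-16-5p, mmu-miR-195a-5p, mmu-miR-497a-5p and mmu-miR-322-5p, written below without the species prefix. They were chosen by name among the 1881 mouse miRNAs of a one-colour Agilent array, and all 6 were found, each with 2 probes of 15 spots. The mice were males of the inbred strain C57BL/6J, 20 weeks old when liver was taken, and 9 arrays were run, 3 for each of 3 groups. All groups started their diet at 3 weeks of age and stayed on it for 17 weeks. The control group ate normal chow. The high fat diet group drew 45% of its dietary energy from fat and got saline by stomach tube in the last 5 weeks, from 15 weeks of age, after 12 weeks on the diet. The metformin group ate the same high fat diet and got metformin, a drug that lowers blood glucose, at 3 mg per kg per day by the same route over the same 5 weeks. The sources used here do not say if control mice got saline. Each array held RNA from 15 mg of tissue from a pool of 4 mice, so errors and p-values describe how pools vary, which can differ from how single mice vary.

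A miRNA pairs with target mRNAs mainly through its seed, the bases near its 5′ end, and lowers the output of those mRNAs. The family that shares this seed is known for targeting mRNAs of cell cycle proteins, among them D-type cyclins, cyclin E and the kinase CDK6, and the survival protein BCL2, and it holds back proliferation in many tissues. In liver its members are known from work on hepatocyte proliferation and regeneration and on insulin signalling.

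The mature sequences below, from RefSeq on mouse build GRCm38.p6, show what the members share and where they differ. Capitals mark the seed, bases 2 to 8 counted from the 5′ end.
miR-15a-5p: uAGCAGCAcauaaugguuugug
miR-16-5p: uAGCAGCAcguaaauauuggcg
miR-15b-5p: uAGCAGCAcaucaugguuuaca
miR-195a-5p: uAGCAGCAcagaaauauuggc
miR-497a-5p: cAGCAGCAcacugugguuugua
miR-322-5p: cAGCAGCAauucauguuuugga
All 6 members carried AGCAGCA, and a target site for one seed is therefore a seed match for all of them. Base 1 was u in 4 members and c in miR-497a-5p and miR-322-5p. Over their whole length, seed included, miR-16-5p and miR-195a-5p were the closest pair, with 19 of 21 compared bases identical when aligned at the 5′ end. miR-15a-5p and miR-15b-5p shared 18 of 22 bases, and miR-15a-5p and miR-497a-5p 17 of 22. The least alike pairs were miR-16-5p with miR-497a-5p (11 of 22) and miR-195a-5p with miR-322-5p (11 of 21). The scanner files hold no probe sequences, so the part of cross-hybridization between such close relatives was not tested.

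The members come from 4 places in the genome. miR-15a-5p lies at chr14:61632075-61632096 and a first copy of miR-16-5p at chr14:61631936-61631957, both on the minus strand, and the hairpin of that copy lies within the span of Dleu2. miR-15b-5p lies at chr3:69009775-69009796 and the second copy of miR-16-5p at chr3:69009918-69009939, both on the plus strand within the span of Smc4, with 66 bases between the hairpins. Both copies of miR-16-5p have the same mature sequence, and the array reads their sum. miR-497a-5p at chr11:70234730-70234751 and miR-195a-5p at chr11:70235062-70235082 lie on the plus strand with 241 bases between the hairpins. miR-322-5p lies at chrX:53054306-53054327 on the minus strand within the span of C430049B03Rik, beside Mir503, Mir351, Mir542, Mir450-1, Mir450-2 and Mir450b.

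On 6 of the 9 arrays, strips of columns at the left or right edge gave no signal. These held 41.1% to 43.8% of the spots on the 3 control arrays, 53.6% and 33.6% on high fat diet arrays 1 and 3, and 31.1% on metformin array 2. The strips were left out of the values reported here, and a reading that kept all spots stands beside each comparison. Control array 3 was hybridised on a second slide. On the slide that held the other 8, the control arrays lay in another row than the high fat diet arrays, so row and diet cannot be told apart there without the metformin arrays. Of all miRNAs, 143 could be tested, and array pairs correlated at 0.989 to 0.998 within groups and 0.978 to 0.996 between groups over 118 miRNAs detected everywhere. The liver markers miR-122-5p, miR-192-5p and miR-194-5p were detected and summed to 96.8 to 119 times the scaling percentile on all arrays, while markers of neurons and pancreas were detected on none. The muscle markers miR-1a-3p, miR-133a-3p and miR-206-3p were detected on 2, 3 and 1 of the 9 arrays. Their sum was 0.122 to 0.192 in control, 0.122 to 1.77 in high fat diet and 0.122 to 0.135 in metformin pools.

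All 6 members were detected on all 9 arrays once the strips were left out. The local background, already subtracted from the intensities given here, was 16.1 to 21. Their median intensity over the arrays was 225 for miR-15a-5p, 200 for miR-16-5p, 120 for miR-15b-5p, 65.9 for miR-195a-5p, 53.1 for miR-497a-5p and 29.7 for miR-322-5p. These intensities show how far each probe stood above background and do not rank the miRNAs, since probes differ in brightness. Each value rests on 15 spots at most, and on as few as 4 for miR-322-5p and 5 for miR-16-5p and miR-497a-5p. miR-322-5p thus stood least above background in the family. Levels below are log2 values relative to the 75th percentile of each array, given as control, high fat diet and metformin pools in order of replicate number.

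The comparison of the high fat diet with chow asks whether diet moves the family. No member passed the threshold of an adjusted p of 0.05 in limma, while 14% of the 143 miRNAs tested did. For miR-15b-5p, miR-195a-5p, miR-497a-5p and miR-322-5p each high fat diet pool lay above every control pool, by 1.15- to 1.31-fold on average, a direction that turned for miR-15b-5p with all spots and for miR-15b-5p and miR-497a-5p with the median of all spots, while miR-15a-5p and miR-16-5p overlapped between the groups. Groups that do not overlap in this direction made up 21.7% of all miRNAs tested, and 37.1% in either direction. At an unadjusted p under 0.05 limma marked 4 of 6 members and 35.7% of all miRNAs tested. In the reading with all spots no member passed and none had groups that did not overlap, against 6.47% and 23% of the 139 miRNAs tested there.

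miR-15a-5p, long studied as a tumour suppressor because its locus is lost in chronic lymphocytic leukaemia, was at -0.15, -0.04 and 0.00 in control pools, 0.08, -0.04 and -0.21 in high fat diet pools, and -0.26, -0.12 and 0.00 in metformin pools. The 3 ranges overlapped. The high fat diet differed from control by 0.01 (SE 0.11, 95% interval -0.23 to 0.24, n = 3, limma adjusted p = 0.976), and the interval leaves room for small shifts of either sign. With all spots the difference was -0.23 (adjusted p = 0.465 by limma), and with the second probe it was -0.01.

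miR-16-5p, its partner from the same transcript and a frequent reference in blood, was at -0.38, -0.30 and -0.15 in control pools, -0.17, -0.23 and -0.33 in high fat diet pools, and -0.33, -0.47 and -0.18 in metformin pools. No group stood apart from another. The diet difference was 0.03 (SE 0.10, 95% interval -0.20 to 0.26, n = 3, limma adjusted p = 0.844), and its sign turned to -0.29 with all spots (adjusted p = 0.517 by limma), where miR-16-5p was detected on 7 of 9 arrays. The red cell marker miR-451a was at -1.57 to -0.13 in control, -0.99 to -0.53 in high fat diet and -1.94 to -1.72 in metformin pools, and miR-144-3p, the other red cell marker, was detected on no array. In metformin pools miR-451a differed by -0.90 from control (limma adjusted p = 0.15) and by -1.01 from high fat diet (limma adjusted p = 0.158), and neither passed. The means of miR-16-5p lay between -0.33 and -0.24 in all 3 groups. Whether red cell content bears on miR-16-5p was not tested.

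miR-15b-5p, from the second locus, was at -1.37, -1.04 and -0.94 in control pools, -0.63, -0.77 and -0.87 in high fat diet pools, and -1.07, -1.10 and -0.71 in metformin pools. Control pool 1 was the lowest of the 9, and metformin pool 3 lay among the high fat diet pools. High fat diet pools were 1.28-fold higher than control (0.36, SE 0.14, 95% interval 0.05 to 0.67, n = 3, limma adjusted p = 0.104), which did not pass. The exact two-sided permutation test gave p = 0.1, the smallest that 3 against 3 pools allow. The sign turned to -0.13 with all spots (SE 0.26, adjusted p = 0.772 by limma). Without control pool 3, which lay alone on its slide, the difference was 0.45 and passed (adjusted p = 0.0494 by limma), as did 27.8% of all miRNAs then tested. A block for the slide sets the same pool aside and so repeats that fit. It gave 0.45 (adjusted p = 0.0498 by limma), where 27.3% were called. With each of the 9 pools left out in turn, the difference of miR-15b-5p ranged from 0.29 to 0.45. The limma adjusted p ranged from 0.0494 to 0.262, and 1 of the 9 fits passed.

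miR-195a-5p, from the chromosome 11 cluster, was at -1.83, -1.87 and -1.93 in control pools, -1.76, -1.68 and -1.60 in high fat diet pools, and -1.61, -1.81 and -1.69 in metformin pools. Every pool on the high fat diet, with or without metformin, lay above every control pool, with control pool 1 and metformin pool 2 close together. The diet difference was 0.20 (SE 0.09, 1.15-fold, n = 3, limma adjusted p = 0.139), and it was 0.17 with all spots (adjusted p = 0.572 by limma).

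miR-497a-5p, from the same cluster, was at -2.39, -2.19 and -2.24 in control pools, -2.06, -2.11 and -1.99 in high fat diet pools, and -2.07, -2.15 and -2.01 in metformin pools. As with its neighbour, both groups on the high fat diet lay above all control pools. The diet difference was 0.22 (SE 0.09, 95% interval 0.02 to 0.42, 1.17-fold, n = 3, limma adjusted p = 0.108). With all spots it was 0.05 (SE 0.20, adjusted p = 0.906 by limma), and with the median of all spots its sign turned to -0.57.

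miR-322-5p, known with miR-503-5p as a pair induced during differentiation and cell cycle exit, was at -3.41, -3.14 and -3.01 in control pools, -2.90, -2.68 and -2.82 in high fat diet pools, and -3.24, -2.88 and -2.76 in metformin pools. The high fat diet pools lay above all control pools, and the metformin pools spanned both. Its difference was the largest of the family at 0.39 (SE 0.14, 95% interval 0.07 to 0.70, 1.31-fold, n = 3, limma adjusted p = 0.0974), and it was 0.14 with all spots (adjusted p = 0.763 by limma). Without control pool 3 it was 0.48 and passed (adjusted p = 0.0482 by limma), as did 27.8% of all miRNAs then tested. A block for the slide, which repeats that fit, gave 0.48 (adjusted p = 0.0489 by limma), where 27.3% were called. With each of the 9 pools left out in turn, the difference of miR-322-5p ranged from 0.34 to 0.48. The limma adjusted p ranged from 0.0482 to 0.224, and 1 of the 9 fits passed.

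**Figure D1:**
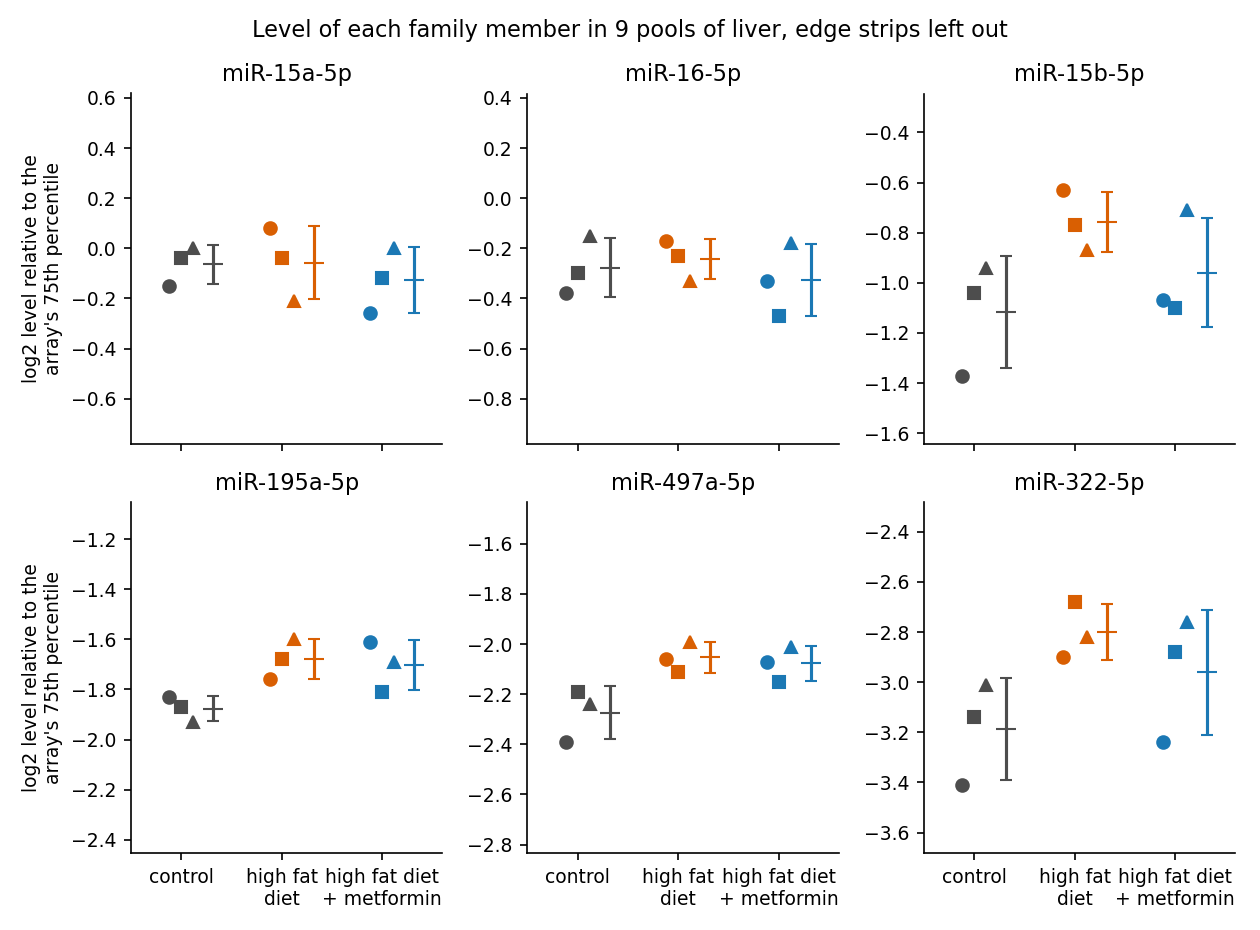
Log2 level of each family member relative to the 75th percentile of its array, with edge strips left out. Circles, squares and triangles are replicates 1, 2 and 3 of each group, the bars give mean and SD over 3 pools, and each panel spans the same height. The orange high fat diet points lie above all grey control points in the panels of miR-15b-5p, miR-195a-5p, miR-497a-5p and miR-322-5p and mix with them in those of miR-15a-5p and miR-16-5p, and with all spots the sign of miR-15b-5p turned.

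Whether position on the slide bears on the diet comparison can be read only through the metformin arrays. With the row as a block, over the 8 arrays of the first slide, the diet difference was 0.61 for miR-15b-5p (SE 0.26, adjusted p = 0.209), 0.89 for miR-322-5p (SE 0.21, adjusted p = 0.0764), 0.22 for miR-497a-5p (adjusted p = 0.45) and 0.03 for miR-195a-5p (adjusted p = 0.919), all by limma, where 0 of all miRNAs passed and 31 had an unadjusted p under 0.05. The value of miR-195a-5p was thus much smaller with the row in the model, and those of miR-15b-5p and miR-322-5p were larger. Only the metformin group lay in both rows, so the row term rests on metformin array 1 against metformin arrays 2 and 3. miR-322-5p was at -3.24 on array 1 against -2.88 and -2.76, and miR-195a-5p at -1.61 against -1.81 and -1.69. An effect of the row and a difference between those pools cannot be told apart. No row of that slide held both control and high fat diet pools, so there is no value within a row. When only the 32 columns of 164 that no array lost to a strip were used, 5 members could be tested, without miR-16-5p. miR-15b-5p then differed by 0.41 (SE 0.09) and miR-322-5p by 0.65 (SE 0.15), both with an adjusted p of 0.0239 by limma, where 20.2% of 99 miRNAs were called. The median over those 99 miRNAs was 0.17, against 0.03 over the 143 tested with all strip-free columns. Of the 5 members, 3 lay above 0.17. That restriction was chosen after the data were seen.

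The comparison of metformin with the high fat diet alone asks whether the drug moves the family in animals on the same diet. No member passed, 1.4% of all miRNAs tested did, and none of the 6 had groups that did not overlap, against 20.3% of all. At an unadjusted p under 0.05 limma marked 0 members and 9.09% of all. The difference was -0.20 for miR-15b-5p (SE 0.14, 95% interval -0.51 to 0.11, n = 3, limma adjusted p = 0.62) and -0.16 for miR-322-5p (SE 0.14, 95% interval -0.48 to 0.16, n = 3, limma adjusted p = 0.674). It was -0.08 for miR-16-5p, -0.07 for miR-15a-5p, -0.03 for miR-195a-5p and -0.02 for miR-497a-5p, each within its interval around 0 and with limma adjusted p of 0.756 to 0.898. All 6 values were below 0, and so were most of the 143 miRNAs, of which 37.1% were above 0. The family median was -0.08 against -0.06 over all miRNAs tested. Metformin arrays 2 and 3 lay in another row of the slide than the high fat diet arrays, so row and drug are partly mixed. With the row as a block the family median was -0.15, and only metformin array 1 shared a row with the high fat diet arrays. With all spots, 4 of the 6 values were above 0, with 0.40 for miR-16-5p and 0.26 for miR-497a-5p, where the median of all miRNAs was 0.16. In that reading 0 of all miRNAs passed (15 had an unadjusted p under 0.05 in limma), and 22.3% had groups that did not overlap. The signs of miR-15b-5p, miR-16-5p, miR-195a-5p and miR-497a-5p thus turned between the readings, while miR-15a-5p and miR-322-5p stayed below 0, at -0.07 and -0.04 with all spots, and within their intervals around 0.

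The comparison of metformin-treated mice with chow-fed mice joins diet and drug. No member passed, as against 1.4% of all miRNAs, and limma marked 1 of 6 members at an unadjusted p under 0.05, against 21% of all. miR-195a-5p was higher by 0.17 (SE 0.09, 95% interval -0.02 to 0.37, n = 3, limma adjusted p = 0.252) and miR-497a-5p by 0.20 (SE 0.09, n = 3, limma adjusted p = 0.22), and in both no metformin pool overlapped a control pool. Groups that did not overlap in this direction made up 12.6% of all miRNAs tested, and 25.9% in either direction. For miR-322-5p the difference was 0.23 (95% interval -0.09 to 0.55) and for miR-15b-5p 0.15 (95% interval -0.16 to 0.46), with overlapping pools, and miR-15a-5p and miR-16-5p were at -0.06 and -0.05. With all spots miR-195a-5p and miR-497a-5p differed by 0.22 and 0.32, and miR-15b-5p and miR-16-5p changed sign to -0.02 and 0.11. In that reading 3 members had groups that did not overlap, 2 higher and 1 lower, against 21.6% of all, and 0 miRNAs passed (15 at an unadjusted p under 0.05 in limma). Scaled to the 75th percentile over all probes instead, where the median of all miRNAs moved to 0.80, all 6 members passed, as did 68.5% of all miRNAs.

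**Figure D2:**
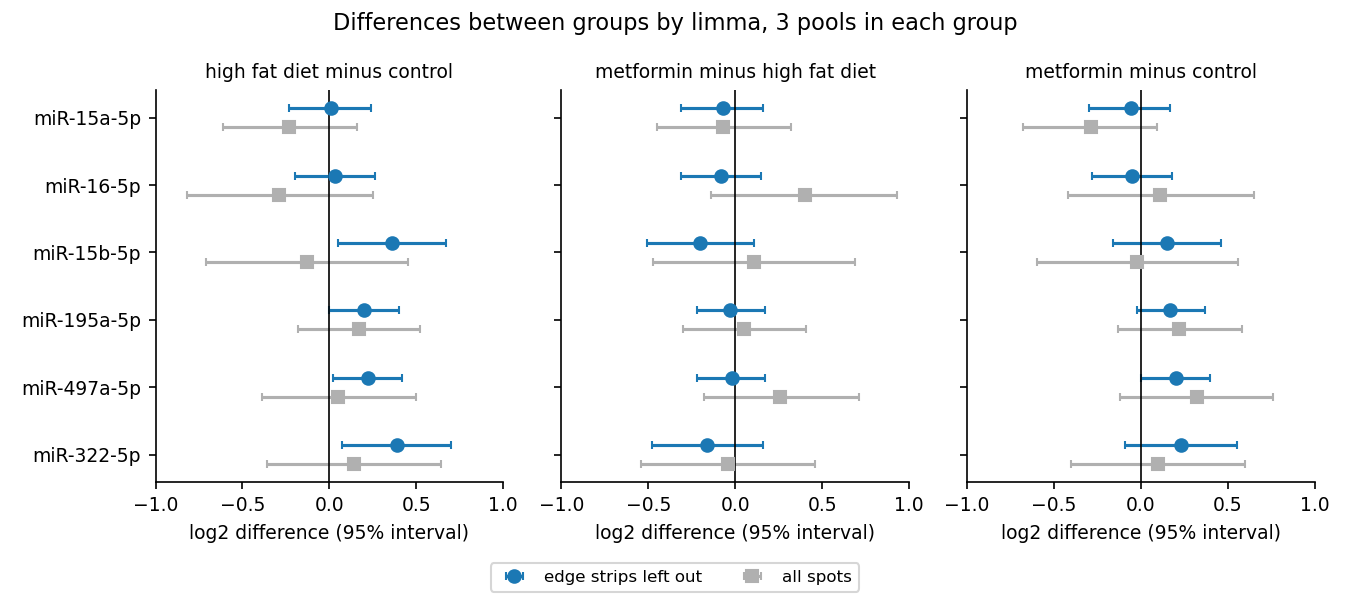
Log2 difference of each member in the 3 comparisons, with the 95% interval from limma over 3 pools in each group. Blue circles leave out the edge strips and grey squares use all spots. Blue intervals of the diet comparison lie above 0 before adjustment for miR-15b-5p, miR-497a-5p, miR-322-5p and, by less than the second decimal shows, miR-195a-5p, and grey intervals include 0 for all members in all comparisons.

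Seen by group order, the means of miR-195a-5p were -1.88 ± 0.05 in control, -1.70 ± 0.10 in metformin and -1.68 ± 0.08 in high fat diet pools (SD, n = 3), and those of miR-497a-5p were -2.28 ± 0.10, -2.08 ± 0.07 and -2.05 ± 0.06. In both, metformin and high fat diet were neighbours that did not differ beyond their spread. For miR-15b-5p the order was control (-1.12 ± 0.22), metformin (-0.96 ± 0.21) and high fat diet (-0.76 ± 0.12), and for miR-322-5p control (-3.19 ± 0.21), metformin (-2.96 ± 0.25) and high fat diet (-2.80 ± 0.11). There the metformin group overlapped both neighbours. The comparisons with the high fat diet share its 3 pools, and those with control share the control pools, so the differences of a member are not independent of each other.

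Set beside the 143 miRNAs tested, the diet differences of the family had a median of 0.21 and a range of 0.01 to 0.39. The median of all miRNAs was 0.03 with quartiles at -0.21 and 0.20. All 6 members had a value above 0, as did 54.5% of all miRNAs. In the comparison of metformin with control the family median was 0.16 against 0.00 over all. With all spots, the family median for the diet was -0.04 and that of all miRNAs was -0.22, with 3 members above 0.

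**Figure D3:**
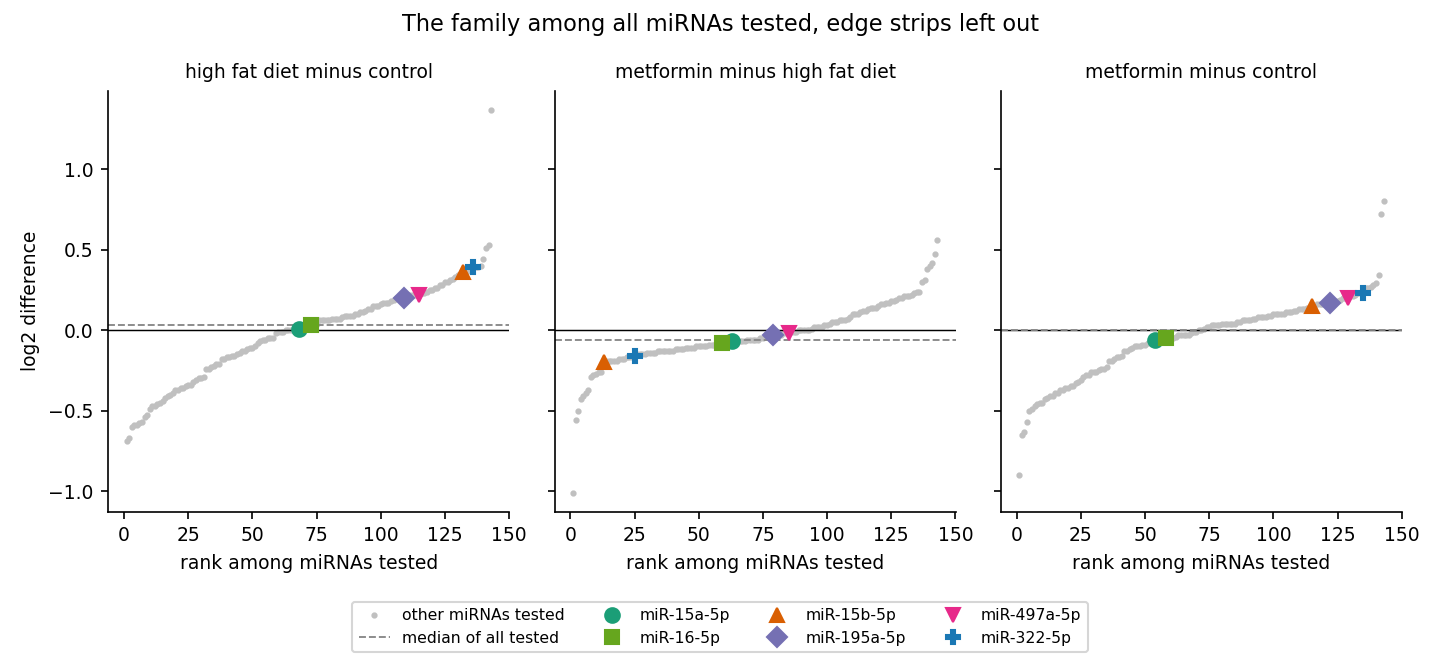
All 143 tested miRNAs ordered by their log2 difference in each comparison, with edge strips left out, and the 6 members marked. The dashed line is the median of all miRNAs tested. In the diet comparison miR-322-5p and miR-15b-5p lie near the upper end and miR-15a-5p and miR-16-5p at the median, and in the metformin comparison the members lie between -0.20 and -0.02.

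Each member was read by a second probe, which repeats the hybridisation on the same array and not the biology. Over the 9 arrays the 2 probes correlated at 0.97 for miR-15a-5p, 0.95 for miR-15b-5p, 0.96 for miR-16-5p, 0.73 for miR-195a-5p, 0.84 for miR-497a-5p and 0.93 for miR-322-5p. The second probe gave diet differences of 0.32 for miR-15b-5p and 0.24 for miR-195a-5p, now with overlapping groups, and 0.03 for miR-16-5p. For miR-322-5p it gave 0.50 and for miR-497a-5p 0.37, both without overlap. The second probe of miR-497a-5p passed the test over second probes (adjusted p = 0.0189 by limma, with 3.62% of 138 miRNAs called), but it was detected on 7 of 9 arrays and not on control pools 1 and 2, where its level is only a bound. The second probe of miR-322-5p was not detected on control pool 1.

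**Figure D4:**
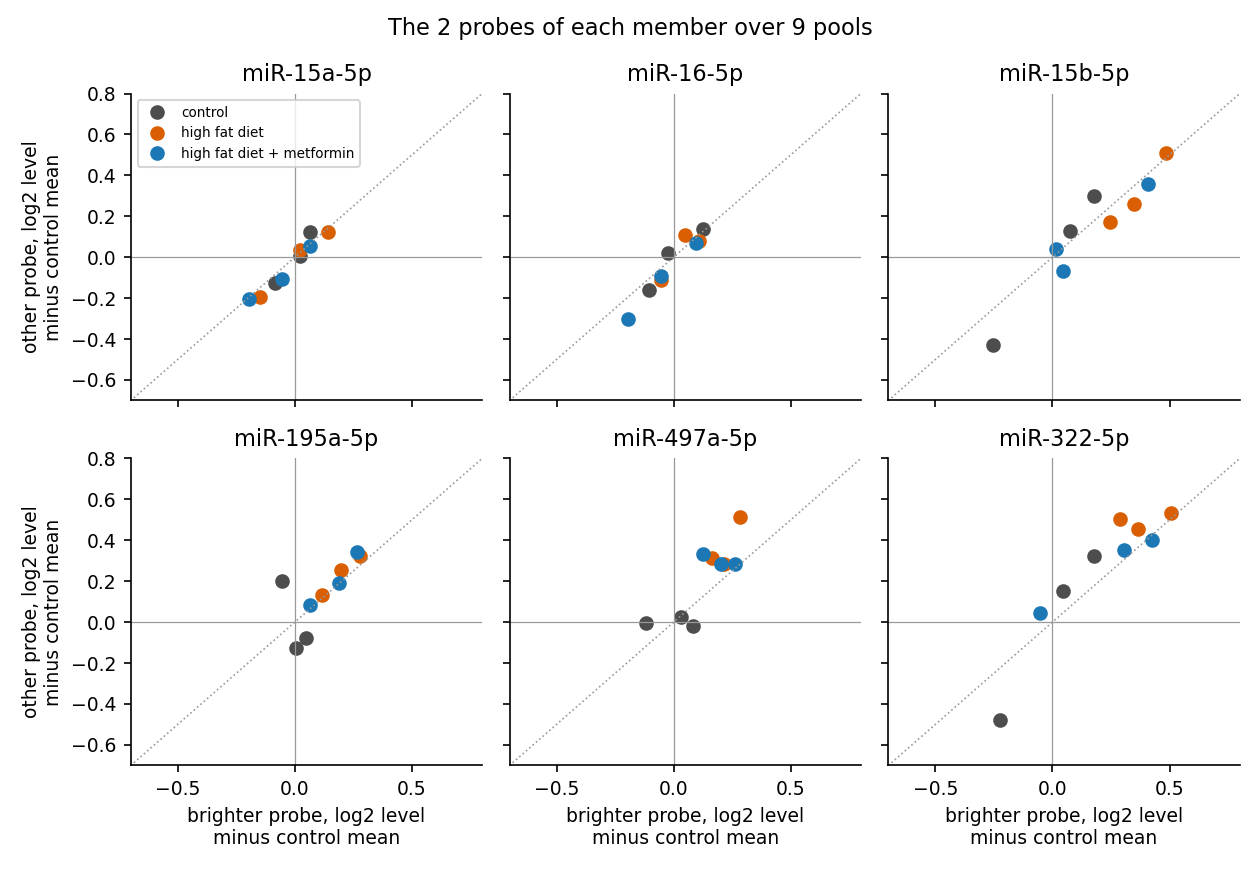
Log2 level of the second probe against the brighter probe of each member, both minus the mean of the control pools, for 9 pools. The dotted line marks equal values. Points follow the line for miR-15a-5p, miR-16-5p and miR-15b-5p, and control pool 1 lies apart at the lower left for miR-15b-5p and miR-322-5p.

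Members made from one transcript can be compared as a ratio within each array, where scaling between arrays cancels. The log2 ratio of miR-15a-5p to miR-16-5p differed between high fat diet and control by -0.02 (exact permutation p = 0.7), and that of miR-497a-5p to miR-195a-5p by 0.02 (exact permutation p = 0.8). In both pairs the groups overlapped. With the edge strips left out, the ratio of miR-15b-5p to miR-16-5p, relative to the control mean, was -0.15, 0.09 and 0.05 in control pools, 0.38, 0.29 and 0.30 in high fat diet pools and 0.10, 0.21 and 0.30 in metformin pools. High fat diet pools lay above all control pools by 0.32 on average (exact two-sided permutation p = 0.1, the smallest possible, adjusted 0.45 over 9 ratio comparisons), and so did metformin pools by 0.20 (exact permutation p = 0.1, adjusted 0.45). With all spots this ratio differed by 0.15 for the diet (exact permutation p = 0.7), and the sign turned to -0.13 for metformin against control (exact permutation p = 0.5). miR-16-5p is read from both loci together, so its own share from the miR-15b locus cannot be told apart.

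Over the 9 arrays the levels of the members were positively correlated in 12 of 15 pairs, with a median r of 0.40 against 0.06 over all pairs of the 118 miRNAs. The arrays share scaling, strips and group differences, so these values are a description. The highest were miR-15b-5p with miR-322-5p (0.81) and with miR-497a-5p (0.75), followed by miR-195a-5p with miR-497a-5p (0.74), miR-15b-5p with miR-16-5p (0.73) and miR-15a-5p with miR-16-5p (0.71). The cluster partners on chromosomes 11 and 14 were thus among the most alike. miR-15a-5p and miR-195a-5p were the least alike at -0.50, and the near-identical miR-16-5p and miR-195a-5p had an r of -0.09.

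Among all other miRNAs detected on every array, the most alike in pattern to miR-15b-5p were miR-27b-3p (r = 0.96), miR-26b-5p (0.94) and miR-106b-5p (0.93), over 9 arrays. To miR-195a-5p they were miR-199a-3p (0.89), miR-423-5p (0.80) and miR-99a-5p (0.79), and to miR-497a-5p miR-151-5p (0.90), miR-152-3p (0.88) and miR-148a-3p (0.87). miR-322-5p was most like miR-350-3p (0.87), miR-185-5p (0.87) and miR-29a-3p (0.85). miR-15a-5p was most like miR-106b-5p (0.74), miR-30a-5p (0.74) and its partner miR-16-5p (0.71), and miR-16-5p most like miR-93-5p (0.88), let-7f-5p (0.88) and miR-23b-3p (0.77). The mean of the 6 members followed miR-27b-3p (0.96), miR-126a-3p (0.94), miR-185-5p (0.92), miR-152-3p (0.92) and miR-194-5p (0.91).

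Some of these patterns belong to markers of other liver cells. miR-199a-3p, a miRNA of stellate and other mesenchymal cells, was at -2.37, -2.36 and -2.44 in control pools, -2.13, -2.10 and -2.02 in high fat diet pools and -2.17, -2.25 and -2.15 in metformin pools, and it rose with the diet by 0.31 (SE 0.08, n = 3, limma adjusted p = 0.0301). With all spots the difference was 0.57 with overlapping groups and did not pass (limma adjusted p = 0.158). Of the 5 mesenchymal markers 2 were detected. The sums given here run over all markers of a list, and those not detected add values at or near the floor of 0.0406. The summed scaled level of the 5 was 0.367 to 0.380 in control, 0.420 to 0.441 in high fat diet and 0.396 to 0.410 in metformin pools, with no overlap between groups. miR-143-3p and miR-145a-5p were not detected on any array, and miR-214-3p on none with the strips left out and on 1 with all spots. Of the 2 endothelial markers miR-126a-3p was detected and miR-126a-5p was not, and the sum of both was 2.66 to 2.97, 3.17 to 3.23 and 2.73 to 3.32. With all spots the diet difference of miR-126a-3p turned to -0.42 (limma adjusted p = 0.518). The 5 leukocyte markers, of which 2 were detected, summed to 0.376 to 0.433, 0.383 to 0.445 and 0.364 to 0.398, and overlapped. With the strips left out, the mesenchymal and endothelial sums were higher in high fat diet than in control pools, as were 4 members. In metformin pools the endothelial sum overlapped that of control, where miR-195a-5p and miR-497a-5p did not. The hepatocyte markers miR-194-5p, miR-192-5p and miR-122-5p differed by 0.22, 0.08 and -0.10 for the diet, with overlapping groups (limma adjusted p = 0.216, 0.631 and 0.422). With all spots they differed by -0.09, -0.24 and -0.58. The part of any cell type in the result was not tested. In whole liver a change in the number of cells of a type and a change of RNA per cell cannot be told apart.

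Other products of these loci were below the detection limit. None of the 7 opposite strands of the members, and none of the 5 partners of miR-322-5p on the X chromosome (miR-503-5p, miR-351-5p, miR-542-3p, miR-450a-5p and miR-450b-5p), was detected on any array. The 4 other miRNAs on the array with the seed AGCAGCA, namely miR-195b, miR-6342, miR-6353 and miR-6419, were not detected either. Among the array's miRNAs named in the RefSeq table, the 6 members were therefore the only carriers of this seed detected here. miR-503-5p differs from the members in the last base of its seed.
miR-503-5p: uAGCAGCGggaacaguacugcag
miR-103-3p: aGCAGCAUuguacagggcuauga
miR-107-3p: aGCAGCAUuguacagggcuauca
The seeds of miR-103-3p and miR-107-3p, which are known to lower insulin sensitivity in liver, hold the last letters of the family seed shifted by 1 base. They differed between high fat diet and control by 0.06 (limma adjusted p = 0.691) and 0.20 (limma adjusted p = 0.172), and neither passed in any comparison.

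The family was also set beside miRNAs with like roles. Of 13 other miRNAs known to act on the cell cycle, 11 were tested. In the diet comparison 1 rose and none fell, with a median of 0.06 and 9 of 11 above 0, while over all miRNAs 14% were called and 54.5% were above 0. With all spots 10 could be tested, of which 1 rose and 3 were above 0, with a median of -0.12. That miRNA was miR-34a-5p, a target of p53 that halts the cell cycle, with 1.37 (SE 0.14, n = 3, limma adjusted p = 0.000265), and 0.84 with all spots (limma adjusted p = 0.0464). It also was higher in metformin than in control pools, by 0.80 (limma adjusted p = 0.0143), a call that was lost with all spots (0.63, limma adjusted p = 0.203), and metformin differed from the high fat diet by -0.56 (limma adjusted p = 0.126). Among the 11 none passed in the comparison of metformin with the high fat diet. Of 14 miRNAs known to act on insulin signalling, 12 were tested and none passed in any comparison, and all 12 had a diet difference above 0, as did 54.5% of all miRNAs, with a median of 0.21. With all spots 4 of the 12 were above 0, with a median of -0.04. Beside miR-103-3p and miR-107-3p these included let-7a-5p (0.10, and -0.46 with all spots), let-7d-5p (0.09, and -0.14 with all spots) and miR-152-3p, the near match of miR-497a-5p in pattern (0.33, limma adjusted p = 0.0624, and 0.09 with all spots).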

How the data were processed

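Per the file headers, the deposited scanner files hold the intensity of each spot after background subtraction, made with Agilent Feature Extraction 11.5.1.1, while the submitters' processing notes name version 10.7; the difference was not resolved. The authors' deposited value matrix gives log2 total gene signal, shifted by a constant for each array (-2.35 to -0.71), and served as an alternative. The members and lists, and the choice to leave out edge strips, were made with earlier results of these data known. Columns were left out from each edge in steps of 4 while at least 10% of the spots of bright probes (80th percentile above 100) lay under 50% of that level. A probe's value is the median over the spots left, minus those marked non-uniform, and the 425 probes that kept fewer than 3 on some array were dropped. Intensity was divided by the 75th percentile over 187 probes detected on all 9 arrays (more than a share of 0.5 of spots well above background), floored at 0.0406 and put on the log2 scale. A miRNA is its brightest probe, tested when a group existed in which all 3 arrays detected it. The reading with all spots takes the mean of all spots without outlier marks.

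Comparisons used limma 3.58.1 (R 4.3.3, files read with version 1.17.8 of data.table) on 3 group means, two-sided, with Benjamini-Hochberg adjustment over all miRNAs tested and a threshold of 0.05, and were tested on simulated data. The simulated noise was independent between miRNAs and held no effect of strip, row or slide, so it cannot judge those. No spot was saturated and no pair of arrays was identical. The number of arrays limits the precision: the median SE of a log2 difference was 0.12 without the strips and 0.20 with all spots. Named are the 6 members, other miRNAs with their seed, opposite strands and cluster partners, 2 with a shifted seed, called or alphabetically first members of the cell cycle and insulin lists, and the miRNAs most like each member. Sequences and loci are from RefSeq (all 6 members matched); the scanner headers name an older build, so no coordinate was taken from them. Alternatives covered spots, background, scaling, filters, probes, blocks and each array left out.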

Additional observations from a re-analysis of the deposited data

How the results depend on the processing

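Each result was recomputed under 23 alternatives, of which the second probe and the columns common to all arrays were chosen after seeing the data. In the diet comparison miR-195a-5p (0.03 to 0.74) and miR-322-5p (0.14 to 0.92) kept their sign in all 23, and neither miR-15a-5p, miR-16-5p nor miR-195a-5p passed in any. The causes of the changes below were not tested unless the construction of the alternative shows them.

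With all spots, limma called 9, 0 and 0 miRNAs for the diet, metformin against high fat diet, and metformin against control (32, 15 and 15 at an unadjusted p under 0.05). The family median was -0.04 for the diet and 0.08 for metformin against high fat diet. Signs turned for the diet in miR-15a-5p (-0.23), miR-15b-5p (-0.13) and miR-16-5p (-0.29). They turned for metformin against high fat diet in miR-15b-5p (0.11), miR-16-5p (0.40), miR-195a-5p (0.05) and miR-497a-5p (0.26), and for metformin against control in miR-15b-5p (-0.02) and miR-16-5p (0.11). With the median of all spots 0, 0 and 0 were called (21, 6 and 10 unadjusted), and the family medians were -0.21 and 0.15. Signs turned for the diet in miR-15a-5p (-0.05), miR-15b-5p (-0.38), miR-16-5p (-0.44) and miR-497a-5p (-0.57), for metformin against high fat diet in miR-15b-5p (0.42), miR-16-5p (1.5) and miR-497a-5p (0.62), and against control in miR-16-5p (1.06).

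Normexp gave family medians of 0.10 for the diet and 0.04 for metformin against control, with 0 calls for metformin against high fat diet (14 unadjusted) and 8 against control. Quantile normalization gave a diet median of 0.11 and 0 calls for metformin against high fat diet (19 unadjusted). There miR-195a-5p (0.18) and miR-497a-5p (0.14) turned, as did miR-15a-5p (0.02) and miR-16-5p (0.01) against control. Scaling to the 75th percentile over all probes, most of them without signal, moved the median of all miRNAs to 0.56, 0.21 and 0.80 and called 1, 0 (7 unadjusted) and 98 miRNAs, with 6 members among the last. The family medians were 0.75, 0.19 and 0.97, and 5, 2 and 4 members lay above the median of all, as in the values reported. For metformin against high fat diet all signs turned, with 0.20 for miR-15a-5p, 0.07 for miR-15b-5p, 0.19 for miR-16-5p, 0.25 for miR-195a-5p and miR-497a-5p, and 0.11 for miR-322-5p. Against control miR-15a-5p (0.75) and miR-16-5p (0.76) turned and passed.

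Without a filter 0, 0 and 0 of 1879 miRNAs were called by limma (45, 15 and 31 unadjusted), since many dim miRNAs enter the adjustment. The mean of detected probes gave 0 calls for metformin against high fat diet (17 unadjusted). The deposited table gave 0, 0 and 0 calls (12, 1 and 10 unadjusted) and family medians of 0.07, -0.20 and -0.05. Signs turned in miR-15a-5p (-0.36) and miR-16-5p (-0.20) for the diet, miR-16-5p (0.09) for metformin against high fat diet and miR-15b-5p (-0.17) against control.

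Same-numbered pools did not deviate together in all pairs (r of -0.0753 to 0.389 for the diet), so the numbers were not taken to pair them. With the replicate block, 22, 0 (13 unadjusted) and 3 miRNAs were called, and 1 member, miR-322-5p, passed for the diet (0.39, adjusted p = 0.0412 by limma). With the slide as a block, which sets control pool 3 aside, 39, 1 and 7 were called. For the diet 2 members passed by limma, miR-15b-5p (0.45, adjusted p = 0.0498) and miR-322-5p (0.48, adjusted p = 0.0489), and miR-16-5p turned against control (0.01). With the row as a block 0 (31 unadjusted), 0 (10) and 5 were called. There miR-195a-5p turned for metformin against high fat diet (0.07), and miR-15a-5p (0.03) and miR-16-5p (0.01) against control. With the second probes 5 were called for the diet, 1 of them a member, and 0 for metformin against high fat diet (14 unadjusted), and miR-15a-5p turned for the diet (-0.01). With the columns common to all arrays 2 members passed for the diet, where the median of all miRNAs was 0.17. In the metformin comparisons 0 miRNAs were called (23 and 17 unadjusted), and the family median for metformin against high fat diet was -0.17.

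Leaving out each pool in turn gave 6 to 40 calls for the diet, 0 to 3 for metformin against high fat diet and 1 to 8 against control. The diet count was 40 without control pool 3, 8 without control pool 1, 6 and 7 without high fat diet pools 1 and 2, and 13 without metformin pool 2. Members called ranged from 0 to 2 for the diet, the 2 only without control pool 3, and were 0 in both metformin comparisons. Family medians were 0.17 to 0.29, -0.15 to -0.03 and 0.08 to 0.21. The diet difference of miR-15a-5p ranged from -0.06 to 0.09. For metformin against high fat diet miR-195a-5p ranged from -0.07 to 0.03 and miR-497a-5p from -0.06 to 0.02, and against control miR-15a-5p from -0.13 to 0.03 and miR-16-5p from -0.12 to 0.04. Signal limits miR-322-5p most, with a median intensity of 29.7 left after background subtraction, where the local background was 16.1 to 21.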
